A study of Mus musculus with 14 samples.

Results

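The CC chemokine genes Ccl2, Ccl7, Ccl11, Ccl12, Ccl8, Ccl5, Ccl3 and Ccl4 lie on mouse chromosome 11 and are described here by the open chromatin found in and around them. They were taken as a listed gene family, and every ATAC-seq peak that overlapped one of the gene bodies or the 20 kb on either side was kept. These are 8 of 21887 protein-coding genes of the RefSeq table, and their peaks merged into 16 regions of 127850 found over all libraries. ATAC-seq marks accessible DNA by the adapters that the Tn5 transposase inserts there, and each library is given as a list of peaks.

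The libraries came from cultured mouse neural stem cells, 50000 cells each, in 7 groups of 2. EV denotes cells with an empty vector; the vehicle named by the labels is DMSO for replicate 1 and PBS for replicate 2. ZR denotes cells carrying the ZFTA-RELA fusion of supratentorial ependymoma, in which RELA is a subunit of NF-kB, with a PBS vehicle label. ZR_DMSO denotes fusion cells whose titles name DMSO but whose treatment label reads PBS. ZR_GSK343 denotes fusion cells given GSK343, an inhibitor of the histone methyltransferase EZH2, at 10 µM for 96 h. ZR_dmCitra denotes fusion cells titled dmCitra and labelled citraconate at 10 mM; citraconate inhibits ACOD1, the itaconate-producing enzyme. DMSO_50K and Citraconate_50K (10 mM) form another library series, whose control libraries are labelled empty vector and whose citraconate libraries are labelled fusion, and treatment and cell line therefore cannot be told apart in it. Citraconate was given for 24 or 48 h, with no label tying a time to a library. Nothing in the labels makes the replicates independent cultures or says whether a line was 1 clone, and p-values here measure a spread that may be technical.

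CC chemokines are small secreted proteins that attract leukocytes through G protein-coupled receptors. Ccl2, Ccl7, Ccl8 and Ccl12 belong to the monocyte chemoattractant group, Ccl11 is eotaxin, and Ccl3, Ccl4 and Ccl5 attract T cells and macrophages. Their genes arose by duplication. Ccl2, Ccl7, Ccl11, Ccl12 and Ccl8 stand close together (82035577 to 82116799 in mm10), and Ccl5, Ccl3 and Ccl4 form a separate group (83525778 to 83664683). Several of the genes, Ccl2 and Ccl5 among them, are known targets of NF-kB in inflamed tissue.

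RefSeq promoter sequence (GRCm38.p6) was at hand for 3 of the 8 genes, Ccl12, Ccl8 and Ccl3. The 250 bases before each start are shown because none of the 14 lists had a peak over any of them. Capitals mark the TATA box letters TATAAA, sought on both strands.

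Ccl12, chr11:82101595-82101844, plus strand: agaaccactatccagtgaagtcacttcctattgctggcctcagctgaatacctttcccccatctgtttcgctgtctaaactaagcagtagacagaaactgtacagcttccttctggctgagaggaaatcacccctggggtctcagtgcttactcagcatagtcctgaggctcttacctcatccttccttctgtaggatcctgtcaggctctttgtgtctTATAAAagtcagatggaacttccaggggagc

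Ccl8, chr11:82114935-82115184, plus strand: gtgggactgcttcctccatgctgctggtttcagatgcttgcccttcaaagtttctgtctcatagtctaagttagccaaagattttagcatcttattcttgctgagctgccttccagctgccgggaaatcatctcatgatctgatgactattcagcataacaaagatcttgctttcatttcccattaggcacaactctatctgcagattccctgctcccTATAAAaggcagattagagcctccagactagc

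Ccl3, chr11:83649379-83649628, minus strand: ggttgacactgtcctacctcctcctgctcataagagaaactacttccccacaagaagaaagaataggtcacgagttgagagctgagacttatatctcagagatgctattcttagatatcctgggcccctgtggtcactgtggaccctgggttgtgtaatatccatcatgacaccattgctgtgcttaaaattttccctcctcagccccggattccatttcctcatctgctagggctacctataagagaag

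Ccl12 and Ccl8 held TATAAA 31 and 32 bases before the start, letters that 13.0% of 27025 promoters of this length contain. Ccl3 did not hold them in this window. None of the 3 held the AP-1 letters TGANTCA (6.87% of all promoters), the interferon response letters GAAANNGAAA (3.04%) or a match to the kB motif (7.01%) in these 250 bases. In a global alignment Ccl12 and Ccl8 were identical at 54.5% of 266 aligned columns, against 46.4% of 267 for Ccl12 with Ccl3 and 50.6% of 269 for Ccl8 with Ccl3.

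Before the members' values, 3 facts about the libraries bear on them. The lists held 12554 to 60472 peaks. The ZR_DMSO lists, with 12554 and 21143 peaks of median width 226 and 186 bp, stood apart from the 419 to 533 bp of EV, ZR, ZR_dmCitra and the second series, and the ZR_GSK343 replicates had 19513 and 57634 peaks. At 12390 peaks per list, the DMSO_50K libraries, labelled empty vector, shared a mean of 0.337 of covered bases with EV and 0.486 with ZR (Jaccard index), and the Citraconate_50K libraries, labelled fusion, 0.443 with EV and 0.487 with ZR. The DMSO_50K lists thus lay nearer to ZR than to EV, against their label, and the Citraconate_50K lists did so too, as labelled. The cell line labels of the second series may be wrong, but EV and ZR belong to another library series. Whether a label is wrong was not tested. Of 8 neural stem markers, 6 and 7 had a peak at a gene end (1 kb or less away) in EV and 1 to 4 elsewhere. Sox2 and Sox1 had one in EV and in no other library. Vim had one in every library, and Notch1 in every library but ZR_DMSO replicate 1. Fabp7 had one in all but ZR_DMSO replicate 1 and both Citraconate_50K libraries. Of 9 microglia and macrophage markers 0 to 4 had one (3 and 4 in EV, 3 in both ZR libraries, 0 and 2 in ZR_DMSO, 2 and 3 in ZR_GSK343, 3 and 4 in ZR_dmCitra, 4 in both DMSO_50K libraries, 2 and 4 in Citraconate_50K), while Aif1, Cx3cr1, Csf1r, Itgam and Ptprc had none in any library. The microglia and macrophage markers that had such a peak were Cd68, Spi1, Tmem119 and P2ry12, each in some of the libraries. Per library, 0 to 2 of 5 fibroblast, 0 to 1 of 4 endothelial and 0 to 2 of 4 astrocyte markers had a gene-end peak. The part of other cell types in the chemokine peaks was not tested. In bulk cells, opening in few cells and weak opening in all cells cannot be told apart.

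The peaks of the family mostly ranked in the weaker part of their lists. In all, 53 peaks of the 14 lists fell within 20 kb of a member, 35 of them in the weaker part of their list (below the 50th percentile by −log10 q) and 4 above the 75th percentile. Both EV lists had a peak within 20 kb of 4 of the 8 genes, where 71.6% and 74.6% of all protein-coding genes had one. Both ZR lists had one at 7 of the 8 genes, against 74.1% and 74.0% of all genes. ZR_DMSO had 0 of 8 in either library, where 43.4% and 56.5% of all genes had a peak. ZR_GSK343 had 1 and 6 (63.4% and 80.8% of all genes), ZR_dmCitra 5 in both (74.7% and 74.2%), DMSO_50K 7 in both (75.8% and 77.5%) and Citraconate_50K 3 in both (70.8% and 69.9%). The windows of neighbouring members overlap, so that 1 peak can count for up to 3 of these genes. Windows also grow with the gene body, which spans 1536 to 16060 bp in the members. The shares of all genes were not matched for gene length. Of the 16 regions, 4 overlapped a gene body, 5 had a peak in 3 or more lists, 6 in 2 and 5 in 1. All 16 were without a peak in both ZR_DMSO lists, as were 84.5% of all 127850 regions.

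**Figure D1:**
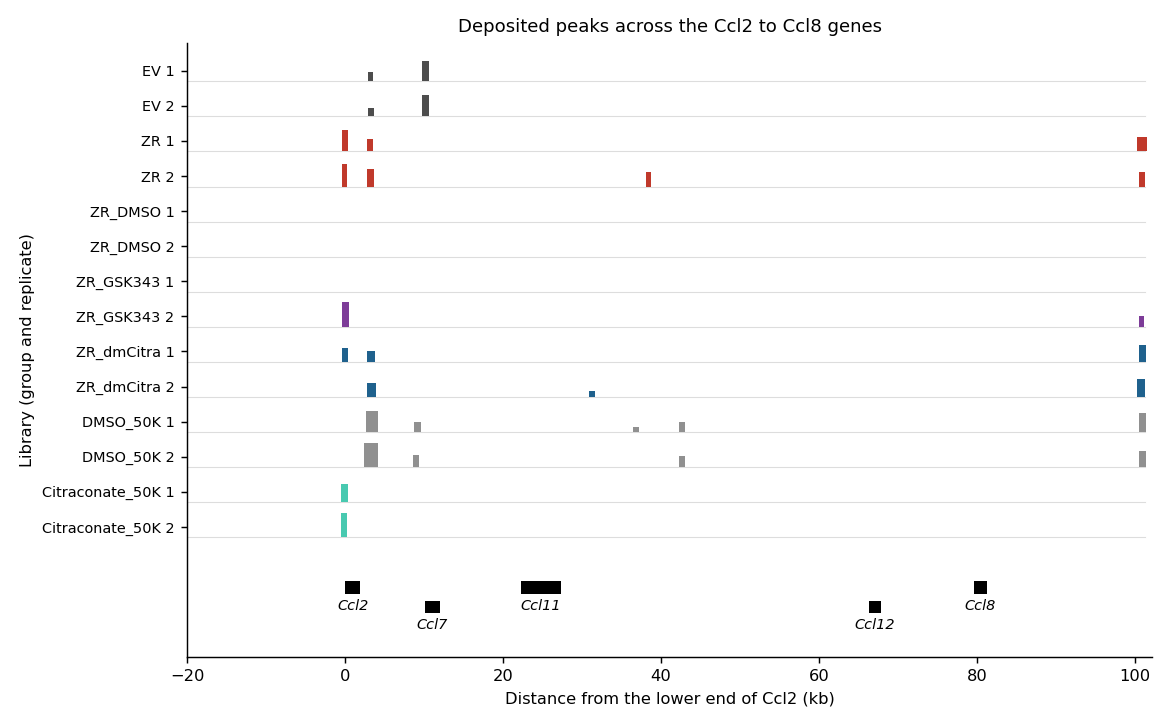
Peaks of each of the 14 deposited lists along the Ccl2, Ccl7, Ccl11, Ccl12 and Ccl8 genes; the x axis is the distance from the lower end of Ccl2 in kb, each row is a library, bar height grows with the percentile of the peak in its own list, and each bar is drawn 0.25 kb wider on either side than the peak. A peak stands at the Ccl2 start in 6 libraries, at the Ccl7 start in the EV libraries alone, and nowhere within 20 kb of Ccl12.

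Ccl2 (gene ID 20296, chromosome 11, 82035577 to 82037452, mm10), the best known attractant of monocytes, is read from its lower coordinate, which is background knowledge since the gene table gives no strand. A region over that start, 82035255 to 82035811, had a peak in 6 of the 10 fusion-labelled libraries and in 0 of the 4 labelled empty vector. Without the second series, whose labels are in doubt, it was in 4 of 8 fusion libraries and 0 of 2 EV libraries. In ZR replicates 1 and 2 the peak was 302 and 256 bp wide and ranked 17808 of 44843 and 14969 of 44560, which is percentile 60.3 and 66.4 of its list, higher being stronger. Its summit lay 59 and 49 bp before the start, and the authors' fold enrichment over background was 12.8 and 14.5. The EV lists had no peak there. The ZR cells thus carried a mid-ranking peak at the Ccl2 start in both libraries where the EV cells carried none.

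In the treated fusion cells the Ccl2 start peak was uneven. ZR_GSK343 replicate 2 had it, 378 bp wide at percentile 72.9, with its summit 49 bp before the start, and replicate 1 did not. ZR_dmCitra replicate 1 had it, 220 bp wide at percentile 31.8, and replicate 2 did not. Both ZR_DMSO lists were without it. In the other series both Citraconate_50K libraries had it, 374 and 348 bp wide at percentile 50.7 and 71.4, and both DMSO_50K libraries were without it. Both libraries with the peak in 1 treatment group and neither control with it was therefore seen in the second series and not with the first-series treatments. A pattern of 0 empty-vector-labelled and 6 or more fusion-labelled lists was shown by 554 of 127850 regions, or 0.433%; it rests on the labels of the second series and was looked up after the Ccl2 values were seen.

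Fold values give a measure of how many tags stood behind these calls. Within each list the folds below 30 were whole multiples, to within 0.05 of a step, of a step of 0.341 to 0.632. If MACS2 wrote its usual ratio, which the sources used here do not record, the number of steps is the pile-up of tags at the summit plus 1. The Ccl2 start peak stood at 24 and 27 steps in ZR, 28 in ZR_GSK343 replicate 2, 14 in ZR_dmCitra replicate 1, and 15 and 23 in Citraconate_50K. The weakest peak of each list stood at 7 to 11 steps, so a library without a peak may still have held a few tags there.

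A further region began 789 bp beyond the higher end of Ccl2, at 82038241 to 82039501, where the RefSeq table has no gene. It had a peak in 8 lists, with summits within 281 bp of one another. The peak was 194 and 235 bp wide in EV, at percentile 14.2 and 12.1. In ZR it was 281 and 398 bp wide, at percentile 29.2 and 45.9. ZR_dmCitra had it at 480 and 576 bp and percentile 21.3 and 33.3. It was widest in DMSO_50K, at 1097 and 1204 bp, with percentile 62.4 and 71.8 and a fold of 14.5 and 19. ZR_DMSO, ZR_GSK343 and Citraconate_50K had no peak there. DMSO_50K, labelled empty vector, thus had the downstream peak without the start peak, and Citraconate_50K the start peak without the downstream one.

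Ccl7 (gene ID 20306, 82045712 to 82047525) encodes another monocyte attractant. The region over its lower end, 82045539 to 82045946, which is its start by background knowledge, had a peak in both EV lists and in none of the other 12. The EV peaks were 340 and 408 bp wide, at percentile 57.2 and 60.0, with folds of 10.7 and 11.1 (17 and 21 steps) and summits 26 and 47 bp before the start. The neighbouring Ccl2 and Ccl7 starts thus differed: ZR had a peak at the first and EV at the other. Over all regions 6.33% were found in both EV lists and in no other list. A region 833 bp below the lower end of Ccl7, at 82044397 to 82044879, had a weaker peak in both DMSO_50K lists, at percentile 17.9 and 25.6, and in no other list.

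Ccl11, the eotaxin gene (gene ID 20292, 82057832 to 82062955), had no peak over its body in any list. Beyond its higher end there were 4 small regions, each in 1 or 2 lists. The nearest, 3790 bp away inside the long noncoding RNA gene Gm38913, was in ZR_dmCitra replicate 2 at percentile 5.01. One at 82072309 was in DMSO_50K replicate 1 at percentile 0.72, close to the end of that list, and one at 82073890 in ZR replicate 2 at percentile 34.4. The last, at 82078097 to 82078387, was in both DMSO_50K lists at percentile 17.9 and 21.7. From there, past Ccl12 and the body of Ccl8, to position 82136133 no list had a peak.

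Ccl12 (gene ID 20293, 82101845 to 82103399) had no peak within 20 kb in any of the 14 lists, which was so for 2812 of 21887 protein-coding genes, or 12.8%. That share was not matched for gene length either. Ccl8 (gene ID 20307, 82115185 to 82116799) had a single region, at 82136133 to 82136811, which lies 19334 bp beyond its higher end and so just inside the 20 kb limit. Its peak was at percentile 33.8 and 34.4 in ZR, 44.3 and 49.1 in ZR_dmCitra, 53.9 and 41.4 in DMSO_50K and 19.7 in ZR_GSK343 replicate 2. EV, ZR_DMSO, ZR_GSK343 replicate 1 and Citraconate_50K had none. Whether this distal region has to do with Ccl8 cannot be read from the lists. The region next outside the limit began 22629 bp beyond Ccl8 and was in 5 lists, and another lay 22772 bp before Ccl2 and was in 10.

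**Figure D2:**
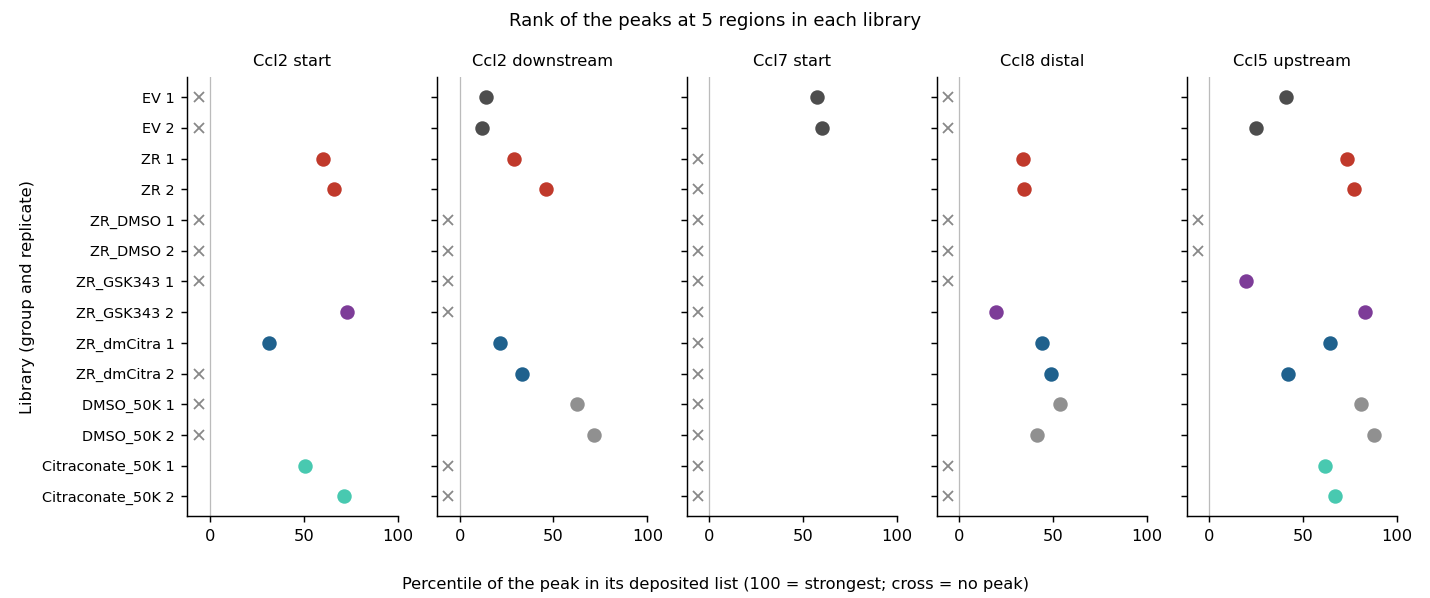
Percentile of the peak within its own deposited list (x axis, 100 the strongest) for each library (rows) at 5 regions; points are libraries and a cross marks a library with no peak there. The Ccl2 start has a point in 6 libraries and none of the EV and DMSO_50K ones, the Ccl7 start has points in the EV libraries alone, and the region before Ccl5 has one in every library but those of ZR_DMSO.

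Ccl5 (gene ID 20304, 83525778 to 83530518), also called RANTES, attracts T cells and monocytes and is read from its higher coordinate by background knowledge. The region 83534329 to 83535287, 3811 bp before that start and inside the long noncoding RNA gene Gm32650, was the most widely shared of the family. It had a peak in 12 of the 14 lists, all but the ZR_DMSO ones, and 9.29% of all regions had a peak in 12 or more. Its summits lay within 291 bp of one another in the 12 libraries.

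That Ccl5 region was wider and higher in rank in ZR than in EV. The order did not hold over all libraries by label. The peak was widest in DMSO_50K, labelled empty vector, at 865 and 897 bp, and absent from both ZR_DMSO lists. The EV peaks were 423 and 310 bp wide, the ZR peaks 804 and 827 bp. In EV it stood at percentile 41.0 and 25.0, in ZR at 73.7 and 77.3, and the fold was 8.21 and 6.35 against 17.6 and 19.4. These widths, percentiles and folds of the ZR libraries all lay above those of EV. Over the Ccl5 window 815.5 ± 16.3 bp were under a peak in ZR and 366.5 ± 79.9 bp in EV at equal list length (SD, n = 2 each), a difference of 449 bp ± 81.5 (two-sided exact permutation test, p = 0.333). With 2 libraries against 2, the exact permutation test can give no p below 0.333, so no member can pass 0.05 in any comparison.

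Among the other libraries with a peak there, the Ccl5 region had percentile 19.5 and 82.8 in ZR_GSK343 and 64.2 and 42.1 in ZR_dmCitra. It had 81.0 and 87.6 in DMSO_50K, the second-series control, and 61.9 and 67.2 in Citraconate_50K. The ZR_GSK343 replicates, with peaks of 278 and 712 bp, lay far apart in percentile, but their lists differ in length: the peaks ranked 15495 of 19239 and 9823 of 57210. With every list at 12390 peaks replicate 1 had no peak there and replicate 2 stood at percentile 20.7, against 22.0 in Citraconate_50K replicate 2. The highest of the 12 was DMSO_50K replicate 2, with rank 7475 of 60346 and a fold of 31.0. Inside the Ccl5 body the DMSO_50K libraries had a peak at 83526750 to 83527377, at percentile 36.1 and 35.7, and no other library had one. Another, at 83528067 to 83528288, was near the bottom of the lists of ZR_dmCitra replicate 1 and DMSO_50K replicate 2, at percentile 1.15 and 5.58. The far edge of the window held a further peak of DMSO_50K replicate 2, 19935 bp beyond Ccl5, and the peak of DMSO_50K replicate 1 in that merged region lay past the limit.

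**Figure D3:**
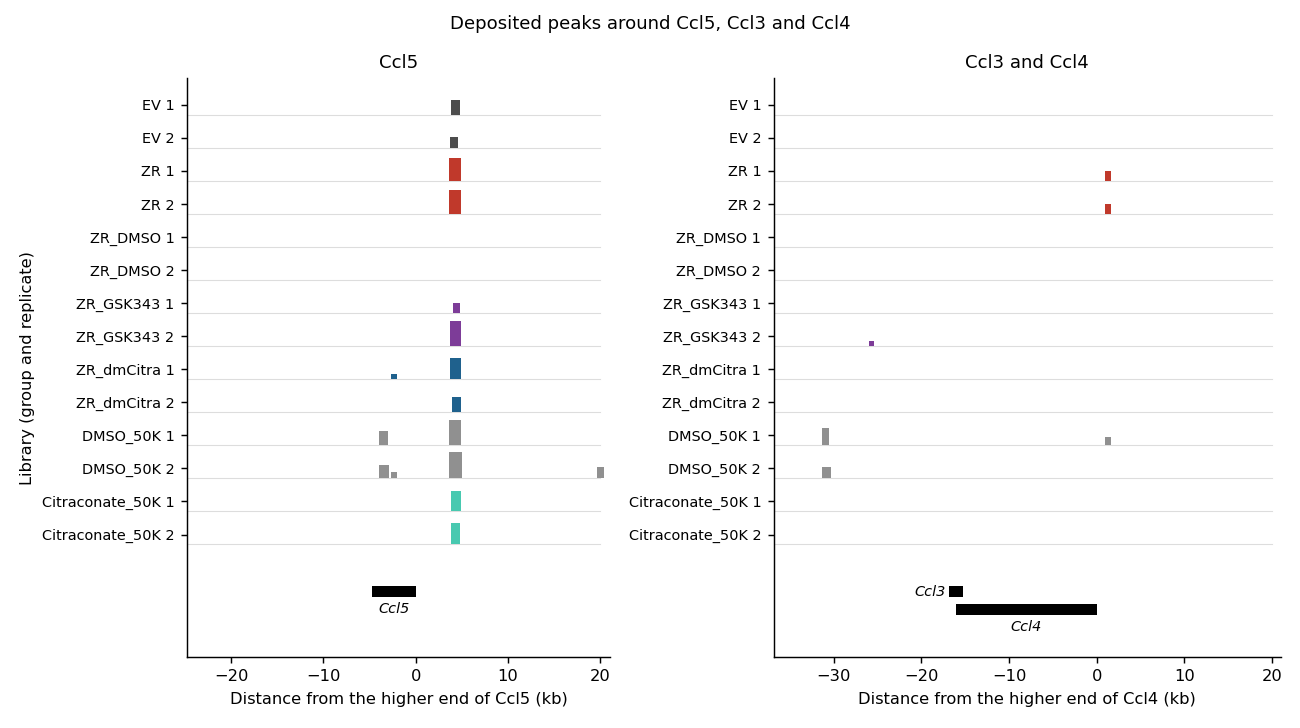
Peaks of each of the 14 deposited lists around Ccl5 (left, distance from its higher end in kb) and around Ccl3 and Ccl4 (right, distance from the higher end of Ccl4 in kb); rows are libraries, bar height grows with the percentile of the peak in its own list, and bars are drawn 0.25 kb wider on either side. The region before Ccl5 recurs in 12 libraries, while Ccl3 and Ccl4 show a few peaks of low rank.

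Ccl3 (gene ID 20302, 83647843 to 83649378) and Ccl4 (gene ID 20303, 83648624 to 83664683), the macrophage inflammatory proteins, overlap in the RefSeq table, where the span of Ccl4 includes a predicted transcript. Neither body had a peak in any list. A region 1220 bp beyond Ccl4, at 83665903 to 83666100, was in both ZR lists (percentile 19 and 19.7, 152 and 155 bp wide) and in DMSO_50K replicate 1 (12.9). A region 13773 bp below Ccl3 was in both DMSO_50K lists, at percentile 48.9 and 25.6. One 8772 bp below Ccl3 was in ZR_GSK343 replicate 2 at percentile 2.28. These are weak peaks, the best of them still in the lower part of its list.

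The first comparison asked how the family differed between fusion and empty-vector cells. With the 4 lists cut to 34989 peaks, 6 member regions had a peak, and a region was called gained where both ZR lists and neither EV list had one, and lost in the opposite case. The Ccl2 start and the distal Ccl8 region were gained, 2 of 6 or 33.3%, where 22.0% of 60384 regions were called gained. The Ccl7 start was lost, 1 of 6 or 16.7%, where 19.3% of all regions were called lost. These shares are near the background, and with so few regions the family as a whole cannot be set apart from it. The Ccl5 region was in all 4 lists, and the region beyond Ccl2 in both ZR lists and EV replicate 1. As deposited, the region beyond Ccl4 was gained too, which made 3 of 7 where 22.3% of all regions were gained.

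Bases under a peak showed where a swap of peaks left the sum much the same. At equal length the Ccl2 window had 583 and 654 bp in ZR and 534 and 408 bp in EV, a difference of 147.5 bp ± 102 (SD, n = 2 each, exact permutation p = 0.333). The Ccl7 window holds the same peaks and gave the same values. The difference was 30 bp in the lists as deposited and −24.5 bp without EV replicate 1, whose short list sets the common length. The Ccl11 window had 281 and 617 bp in ZR and 534 and 408 bp in EV, and these groups overlapped; without ZR replicate 1 the difference was 146 bp. At Ccl8 there were 657 and 275 bp in ZR and 0 in EV. Ccl12, Ccl3 and Ccl4 had 0 in all 4 libraries at this length.

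The EZH2 inhibitor and first-series citraconate comparisons share the ZR_DMSO libraries, whose short lists limit both. With the lists cut to 12390 peaks, ZR_GSK343 and ZR_DMSO had 1 member region between them, the Ccl5 region in ZR_GSK343 replicate 2, and called 0 of 1 gained and 0 lost (10.6% and 7.76% of all 21553 regions were called so). ZR_dmCitra and ZR_DMSO had no member region in any of their 4 lists at that length. As deposited, the Ccl5 region was gained with GSK343, 1 of 4 member regions where 7.75% of all regions were gained. With citraconate the region beyond Ccl2, the distal Ccl8 region and the Ccl5 region were gained as deposited, 3 of 6 or 50.0%, where 35.1% of all regions were gained. The ZR_dmCitra lists were longer, at 45920 and 44196 peaks, and all 3 regions were in both ZR lists as well.

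Set against the ZR cells in place of ZR_DMSO, both with a PBS label, GSK343 gave no call. At 19239 peaks the Ccl5 region was in all 4 lists, and the Ccl2 start in both ZR lists and ZR_GSK343 replicate 2. For citraconate, at 44033 peaks, the regions beyond Ccl2, beyond Ccl8 and before Ccl5 were in all 4 lists. The Ccl2 start was in both ZR lists and ZR_dmCitra replicate 1, and the region beyond Ccl4 in both ZR lists alone. At the Ccl5 window the difference between ZR_GSK343 and its control was 356 bp ± 503 (SD, n = 2 each, exact permutation p = 1) against ZR_DMSO, and −320.5 bp against ZR.

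The second citraconate comparison, Citraconate_50K against DMSO_50K, was made at 29432 peaks, where 5 member regions had a peak. The Ccl2 start was gained, 1 of 5 or 20.0% against 9.09% of 45192 regions, and the region beyond Ccl2 was lost, 1 of 5 against 16.8% of all regions. The Ccl5 region was in all 4 lists, with 579 and 490 bp under a peak in Citraconate_50K and 865 and 897 bp in DMSO_50K. The difference at Ccl5 was −346.5 bp ± 66.9 (SD over 2 libraries a group, p = 0.333 by the exact permutation test). At Ccl2 and Ccl7 it was −789.5 bp ± 77.9 (174 bp with all lists at 12390 peaks) and at Ccl11 −1150.5 bp ± 75.7, both from the wide DMSO_50K peak beyond Ccl2 (exact permutation p = 0.333 each). Over the 32 pairs of gene and comparison at equal length, 13 had a nonzero difference and 8 of these reached the smallest possible p. These pairs are not separate results. Neighbouring windows share peaks, and Ccl2 and Ccl7 had the same values in each comparison, as did Ccl3 and Ccl4.

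**Figure D4:**
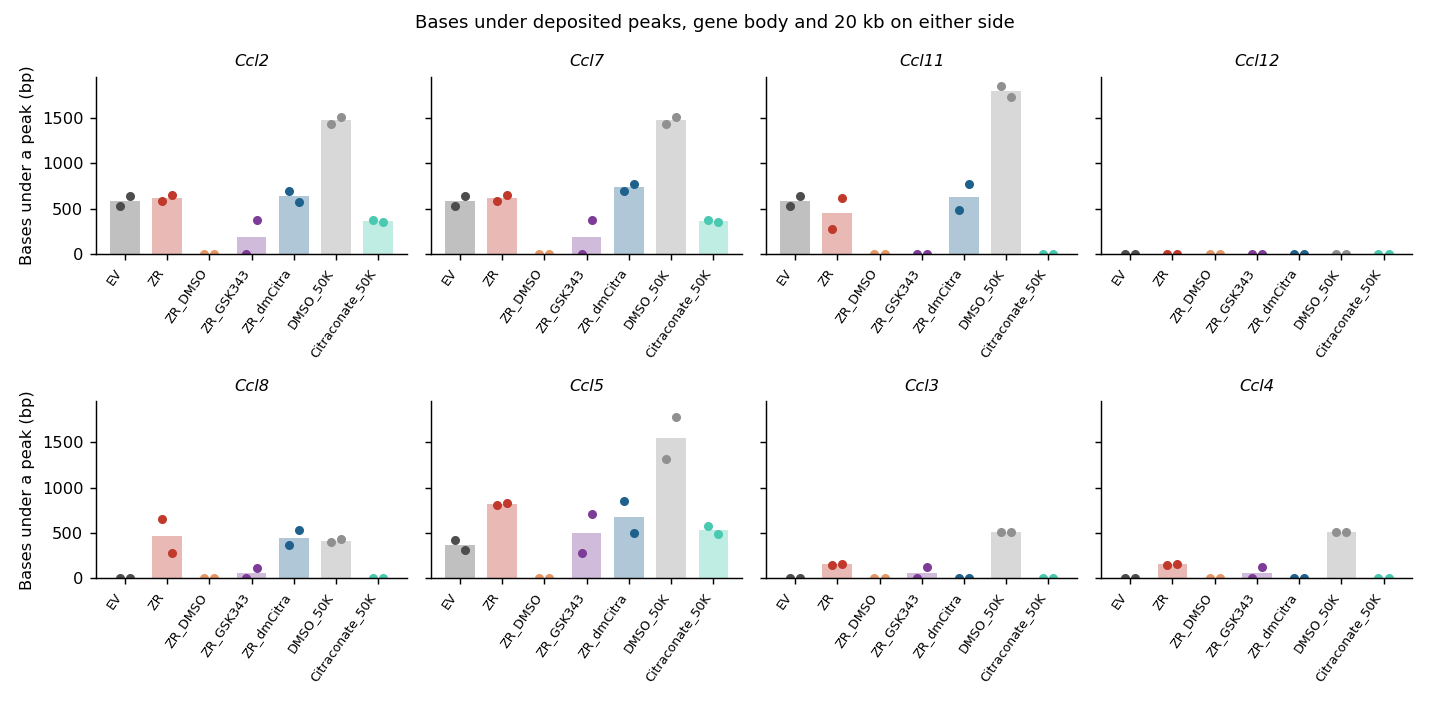
Bases under a deposited peak (y axis, bp) over each gene body and 20 kb on either side, by group; bars are the mean of 2 libraries and points the libraries. Ccl12 is at 0 in all groups, ZR_DMSO is at 0 for every gene, and the DMSO_50K bars are the tallest at Ccl2, Ccl7, Ccl11, Ccl5, Ccl3 and Ccl4.

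DMSO_50K carried the most peaks of the family, 9 in each library, against 3 in each EV library that bears the same cell line label and 2 in each Citraconate_50K library. Of the 16 merged regions, 5 were in both DMSO_50K lists and no other, or 31.2% against 6.16% of all regions. Peaks past the 20 kb limit count here, unlike above: the region at the far edge of the Ccl5 window is among the 5 through such a peak, and 4 have both peaks inside the limit. Its lists are also the longest of the 14 in covered bases, with 32.8 and 41.6 Mb where the others had 3.69 to 28.0 Mb. The part of list length in this was not tested. As deposited, 7 of 12 member regions were lost and 1 gained in Citraconate_50K against DMSO_50K, where 29.7% and 1.34% of all regions were called so.

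The receptors and other ligands of the family were read in the same way. Among the CC and atypical receptor genes, Ccr3, Ccr4, Ackr1, Ackr2 and Ackr4 had a gained region within 20 kb in ZR against EV, and Ccr10 had a lost region, which overlapped the gene body. The gained regions of Ccr3 and Ccr4 overlapped the gene bodies too. Ackr1 had 3 gained regions. Over all 14 receptor genes, named here or not, 8 of 18 regions were gained and 1 lost, where 22.0% and 19.3% of all regions were called so. Whether the receptors differ from all regions was not tested. Of 12 CC ligand genes outside the list, 5 had a gained region (Ccl1, Ccl17, Ccl20, Ccl25 and Ccl28) and 6 a lost one (Ccl20, Ccl22, Ccl24, Ccl25, Ccl26 and Ccl27a), which is 8 gained and 5 lost of 34 regions, where 22.0% and 19.3% of all regions were called so. Ccl24 and Ccl26 share their lost region. Ccl1, the next CC gene past Ccl8, had 3 of the gained regions.

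Against ZR_DMSO at equal length none of these receptor genes had a called region with GSK343 or citraconate, and of the other ligands Ccl22 had a gained and Ccl28 lost regions with citraconate. In the second citraconate comparison Ccr4 and Ccr7 had a gained region and Ackr1 and Ackr4 a lost one. There Ccl1, Ccl17 and Ccl28 had gained and Ccl20, Ccl22, Ccl25 and Ccl28 lost regions. Over all listed genes, named here or not, 2 of 16 receptor regions were gained and 3 lost. Of 31 ligand regions 6 were gained and 7 lost. In that comparison 9.09% and 16.8% of all regions were called so. The CXC chemokine genes of chromosome 5, a comparable cluster of 8, had 6 gained and 3 lost of 18 regions in ZR against EV, beside the same 22.0% and 19.3% of all regions. At 12390 peaks per list Cxcl11 had a peak within 20 kb in 13 libraries, Cxcl1 and Cxcl9 in 11, Cxcl10 in 10, Cxcl2 in 5 and Cxcl13 in 3. Cxcl3 and Cxcl5 had none at that length. Of the CC members Ccl5 had one in 7 libraries, Ccl2 and Ccl7 in 1, and the other 5 in none. Whether the clusters differ was not tested.

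Likeness to other genes was measured for the member with a peak in at least 3 of the 14 lists at 12390 peaks, which was Ccl5 (7 lists). The percentile of the best peak within 20 kb, taken as 0 where there was none, was correlated over the 14 libraries with that of 15620 protein-coding genes. Among the most alike were Lypla2 and Pithd1, neighbours on chromosome 4 that share a peak, each with Pearson r = 0.853. This is a description over libraries that share list length and series, and its highest values are those of DMSO_50K, where Ccl5 had 19.2 and 39.7 and Lypla2 58.0 and 70.8, while in ZR Ccl5 had 4.93 and 18.5 and Lypla2 0.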

How the data were processed

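ATAC-seq peak lists of 14 libraries, 2 in each of 7 groups, were read as deposited in narrowPeak format on mm10. The submitters' processing notes name BWA, SAMtools and Picard; peak names in the files carry MACS2, per the files, without its version or settings. For each peak the deposited files give a score, a fold enrichment at the summit (a ratio to background), −log10 p and −log10 q, and the summit offset. Peaks were called per library. Sequencing depth is unknown, and a list's length limits which weak peaks are seen.

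Peaks on chromosomes 1 to 19, X and Y were ranked by −log10 q and merged over the lists where they shared 1 bp or more. For each comparison the 4 lists were cut to the shortest of them. Bases under a peak were compared by a two-sided exact permutation test. The percentile is 100 for the strongest peak of a list. Genes and promoters came from RefSeq (GRCm38.p6). Promoters were aligned with Biopython 1.88; other steps used Python 3.11.15, pandas 2.3.3 and scipy 1.17.1, and the calling code was tested on simulated data.

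All 8 members are named, with the regions called in a comparison or present in the most lists, their gene-end peaks, and the listed receptors and ligands with a called region; some items that this rule names are not reported here. The members, lists and tests were chosen with earlier results of these data known. Alternatives were the deposited length, 12390 peaks in every list, −log10 q of at least 5, windows of 10 and 50 kb, another control group, a 50% overlap and leaving out each library.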

Additional observations from a re-analysis of the deposited data

Results flagged for a closer look

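In the lists as deposited, the differences between citraconate and DMSO libraries had opposite signs in the 2 library series at 3 of the regions. The first-series sign is set by the ZR_DMSO lists, which had 0 bases under a peak there. At the region beyond Ccl2 the bases under a peak differed by 528 bp (ZR_dmCitra minus ZR_DMSO) and by −1150.5 bp (Citraconate_50K minus DMSO_50K), 1678.5 bp apart. At the distal Ccl8 region the differences were 450.5 and −413.5 bp, 864 bp apart. At the region before Ccl5 they were 577.5 and −346.5 bp, 924 bp apart. The difference between the series was not tested. At 12390 peaks every first-series difference was 0. With ZR as the control the first-series difference was 19.5 bp over the Ccl2 window, −15.5 bp at Ccl8 and −238 bp at Ccl5. The signs were thus no longer opposite at Ccl8 and Ccl5. The Ccl2 window also holds the Ccl2 start peak. At the region beyond Ccl2 itself the peaks were 480 and 576 bp wide in ZR_dmCitra and 281 and 398 bp in ZR. In the second series the labels give control and citraconate libraries different cell lines, so treatment and cell line cannot be told apart there.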

How the results depend on the processing

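Of 92 recounts of gained and lost member regions, 16 moved by more than 1.5 times or went to or from 0. Of 272 values set beside the main differences in covered bases, 227 were counted as unchanged, 39 moved and 6 reversed. The 227 include values within the replicate spread and pairs with a difference of 0 in both settings. They also include the replicate block of all 32 pairs, which keeps the main value by construction. The causes were not tested. ZR against EV gained 1 region with all lists at 12390 peaks or with 10 kb windows and 4 with 50 kb windows (2 to 3 leaving out a library), and lost 0 at 12390 peaks (1 leaving out any library). The region gained at 12390 peaks was the one before Ccl5, which was in all 4 lists of the main comparison. At that length neither ZR list had a peak at the Ccl2 start or the distal Ccl8 region. With 10 kb windows the gained region was the Ccl2 start. GSK343 gained 1 as deposited or at −log10 q of at least 5, and 0 to 1 leaving out a library (1 without ZR_GSK343 replicate 1 or ZR_DMSO replicate 1). ZR_dmCitra gained 3 as deposited or at −log10 q of at least 5, and lost 1 against ZR. Citraconate_50K gained 0 at 12390 peaks; it lost 7 as deposited, 0 at 12390 peaks, 6 at −log10 q of at least 5, and 1 to 3 leaving out a library (3 without DMSO_50K replicate 2). Leaving out a library, the ZR against EV difference ran from −24.5 bp (without EV replicate 1) to 183 bp (without ZR replicate 1) at Ccl2 and Ccl7, and from −194 bp (without EV replicate 1) to 146 bp (without ZR replicate 1) at Ccl11. The other reversed differences were −320.5 bp at Ccl5 for GSK343 against ZR, and 174 bp at Ccl2 and Ccl7 for Citraconate_50K at 12390 peaks. Same-numbered replicates did not deviate together (correlations 0.01, 0.03, 0 and 0 over all regions). The labels give them only a shared number, and this check cannot tell whether they shared a culture or preparation. With the replicate block the Ccl2 difference of 147.5 bp kept its value with an exact permutation p = 0.5, the smallest that pairing allows.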

Other observations

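Beyond the 20 kb limit, a region 27899 bp below Ccl2, at 82006772 to 82007678 on chromosome 11, had a peak in 9 lists: both ZR, both ZR_dmCitra, both DMSO_50K and both Citraconate_50K libraries and ZR_GSK343 replicate 2. Neither EV list had it. The region 22772 bp below Ccl2 was in these 9 and in EV replicate 2.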
